A study of Mus musculus with 12 samples.

Results

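Igf2, H19, Dlk1, Meg3, Rian, Mirg, Peg3, Plagl1, Cdkn1c and Grb10 are 10 imprinted genes that act on growth, and they were taken by symbol from a table of 24421 mouse genes. The table held reads from livers of C57BL/6 mice aged 15 months, in 4 groups of 3 libraries. These were non-tumour liver and tumours of Atg7 knockouts (Atg7KO), and of mice labelled as knockouts of both Atg7 and Hmgb1 (DKO). Atg7 is needed to build autophagosomes and Hmgb1 encodes a chromatin protein. The Atg7 knockout was shared by every group and no wild-type liver stood beside them. The labels named no Cre driver or promoter, no sex and no batch, and do not tell if each library was a separate mouse, so that p-values here cover only the spread between the libraries sequenced. Of the 10 genes 9 passed a filter on low counts and were tested with edgeR, and Mirg, with 0 to 39 reads per library, did not. The genes were chosen with the dominance of single tumours already known.

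An imprinted gene is read from only the maternal or only the paternal copy, because DNA methylation set in the egg or sperm marks the copies differently. Many imprinted genes act on fetal growth: as a broad rule those read from the paternal copy, such as Igf2, Dlk1, Peg3 and Plagl1, favour growth or build tissue, and maternally read ones, such as H19, Cdkn1c and Grb10, hold it back. Fetal liver expresses Igf2, H19 and Dlk1 strongly and loses most of them after birth, which is why their return is watched in liver tumours. Counts per gene do not separate the copies, so which copy was read in these livers was not measured for any gene.

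Several of the genes carry small RNAs, shown here because the transcripts below are also their precursors. RefSeq (GRCm38.p6, the assembly of mm10) places miR-675 inside the H19 span and miR-483 inside the Igf2 span, both on the minus strand of chromosome 7. The capitals mark the seed, bases 2 to 8, with which a miRNA pairs to its targets.
miR-675-5p: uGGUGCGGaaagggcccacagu
miR-675-3p: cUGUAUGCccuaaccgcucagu
miR-483-5p: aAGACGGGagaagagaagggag
miR-483-3p: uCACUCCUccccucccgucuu
None of these 4 shares a seed with the miRNAs of the chromosome 12 cluster. There, between the start of Meg3 and the end of Mirg, a distance of 208461 bases, RefSeq lists 105 mature miRNAs on the plus strand, with 97 seeds, of which 8 are shared by 2 miRNAs each. Of the 105, 19 lie inside the Mirg span, 6 inside Rian and 3 inside Meg3, and the rest between the genes. Examples with a shared seed are miR-379-3p with miR-411-3p, miR-376b-5p with miR-376c-5p, and miR-410-5p with miR-494-5p.
miR-379-3p: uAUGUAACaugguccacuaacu
miR-411-3p: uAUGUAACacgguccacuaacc
miR-376b-5p: gUGGAUAUuccuucuaugguua
miR-376c-5p: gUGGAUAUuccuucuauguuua
miR-410-5p: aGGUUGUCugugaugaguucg
miR-494-5p: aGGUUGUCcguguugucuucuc
The count table did not measure mature miRNAs: of 63 rows for miRNA hairpins within 200 kb of the genes 60 held 0 reads in every library, and no row held more than 1 read in all.

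Of the promoter windows those of Meg3 and Peg3 are printed, as the only ones here that held the motif marked below. Each of these genes was highest in a single tumour, at 13.8 and 26.5 times the next library. That does not set them apart, since Mirg stood at 14.4 and Rian at 5.60 times the next library. RefSeq tables gave a window from 250 bases before to 50 bases after a start for 8 of the 10 genes, and H19 and Cdkn1c had none there. The capitals mark TGACGTCA, a palindrome known as the cyclic AMP response element, which occurs once in both windows. The Peg3 window (GRCm38.p6, chr7:6730370-6730669, minus strand) also contains the start of Usp29, which is read in the opposite direction.
Peg3: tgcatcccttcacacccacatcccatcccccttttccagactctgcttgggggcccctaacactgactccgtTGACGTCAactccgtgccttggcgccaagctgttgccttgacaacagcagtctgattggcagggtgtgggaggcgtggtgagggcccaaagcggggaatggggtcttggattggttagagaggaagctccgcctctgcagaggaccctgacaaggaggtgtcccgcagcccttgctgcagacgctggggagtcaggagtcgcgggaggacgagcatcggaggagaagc
Meg3: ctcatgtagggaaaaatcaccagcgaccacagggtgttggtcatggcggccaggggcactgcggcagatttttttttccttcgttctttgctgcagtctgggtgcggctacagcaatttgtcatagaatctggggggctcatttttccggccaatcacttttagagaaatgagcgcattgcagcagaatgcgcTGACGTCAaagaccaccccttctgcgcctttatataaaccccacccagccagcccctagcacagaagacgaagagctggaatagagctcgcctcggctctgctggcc
The Meg3 window is chr12:109540746-109541045 on the plus strand. The motif begins at base 73 of the Peg3 window and at base 194 of the Meg3 window. None of the other windows of the imprinted genes held it, those of Mirg and Rian included. It occurred in 588 of 32851 mouse windows of 300 bases, or 1.79%, on either strand, and a match of letters says nothing about whether a factor was bound.

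Library totals ran from 18292190 to 32354958 reads. Reads of Atg7 were present in every library, 88 to 352 in Atg7KO and 151 to 401 in DKO. So were those of Hmgb1, 2720 to 4355 and 1732 to 3144, ranges that overlapped. Sex chromosome transcripts separated the genotypes: 4 Y-linked genes summed to 0 to 2 reads in Atg7KO and 1898 to 4639 in DKO libraries. Xist had 1130 to 12216 reads in Atg7KO and 0 to 2 in DKO. For every comparison between genotypes below, the Hmgb1 knockout and this difference cannot be told apart. Hepatocyte markers (Alb, Apoa1, Ttr and 3 others) summed to 23353 to 103558 CPM (a gene's reads relative to the total of its library) in each library, lowest in Atg7KO tumour 2. Of 6 bile duct markers Spp1 stood at 6399.8 CPM in that tumour against 307 to 1099 in the other 11 libraries and Sox9 at 52.0 against 8.40 to 46.5, whereas Epcam, Krt7, Krt19 and Cftr lay inside the range of the others. In bulk tissue fewer cells of a type and less RNA per cell cannot be told apart.

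Most of the summed level of Peg3, Mirg, Meg3, Rian and H19 came from a single tumour each. That of Igf2 came mostly from Atg7KO tumour 1 and DKO tumour 1, at 3373 and 2850 CPM. Grb10, Plagl1 and Cdkn1c were spread over the libraries. Rian in Atg7KO and Igf2 and Grb10 in DKO were nonetheless higher in all 3 tumours than in all 3 non-tumour libraries. Values are CPM scaled with TMM factors, which adjust each library for its composition. Atg7KO tumour 1 had the highest level of Igf2, H19, Dlk1, Meg3, Rian and Mirg of all 12 libraries, DKO tumour 1 the highest Peg3 and Cdkn1c, Atg7KO tumour 2 the highest Grb10, and Atg7KO non-tumour 1 the highest Plagl1. A single library held 84.7% of the summed level of Peg3 over 12 libraries, 83.5% of Mirg, 76.3% of Meg3, 75.6% of Rian, 73.8% of H19, 50.3% of Igf2 and 46.8% of Dlk1. The corresponding shares of Grb10, Plagl1 and Cdkn1c were 23.6%, 19.6% and 16.6%. Across all 14443 tested genes the median of this share was 13.6%, and 185 genes, 1.28%, were over 50%. Since the 10 genes were chosen for this behaviour, their shares are a description.

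**Figure D1:**
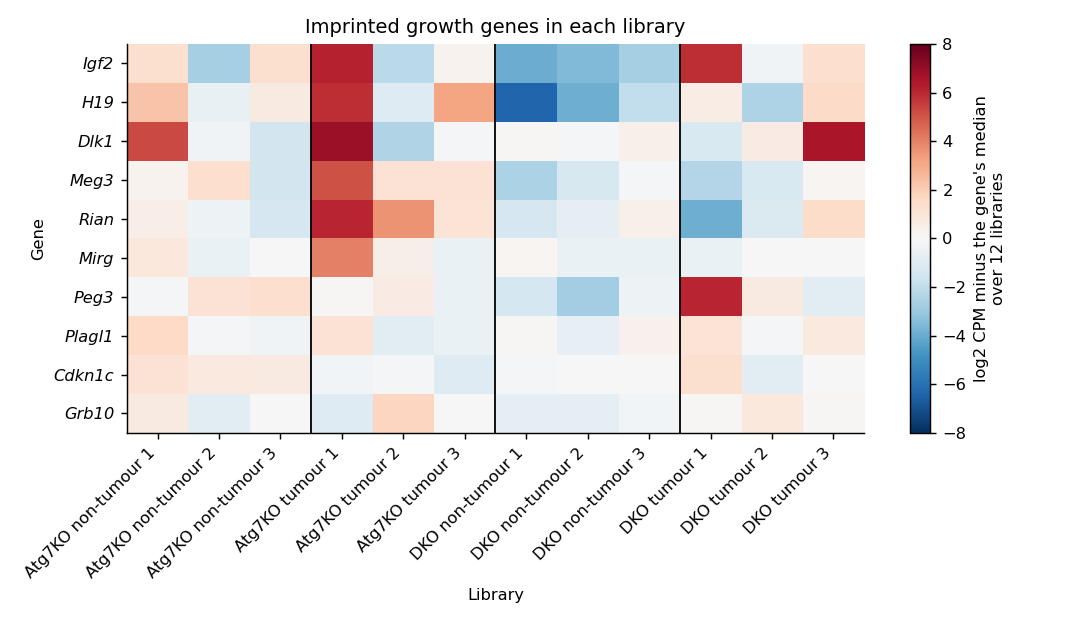
Colour gives log2 CPM of each gene in each library minus the gene's median over the 12 libraries, with genes in rows and libraries in columns grouped by genotype and tissue. The column of Atg7KO tumour 1 is dark red from Igf2 to Mirg, that of DKO tumour 1 for Igf2 and Peg3, and that of DKO tumour 3 for Dlk1.

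Tested over all 12 libraries with the edgeR quasi-likelihood F test and Benjamini-Hochberg adjustment over 14443 genes, none of the 9 tested genes passed an adjusted p of 0.05 in any of 5 comparisons. Between Atg7KO tumours and Atg7KO non-tumour liver edgeR called 0.0% of all genes, and 3 of the 9 had an unadjusted p under 0.05 against 16.8% of all genes. In the same comparison Rian was higher and Cdkn1c lower in all 3 tumours than in all 3 non-tumour libraries, 2 of 9 against 23.5% of all genes in either direction. Between DKO tumours and DKO non-tumour liver edgeR again called 0.0%, 3 of the 9 had an unadjusted p under 0.05 against 22.5%, and Igf2 and Grb10 were higher without overlap, 2 of 9 against 26.9%.

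In non-tumour liver all 9 genes had a log2 fold change below 0 for DKO minus Atg7KO with edgeR, Rian being above 0 with limma, and the median was -1.60 against -0.05 over all genes. None was called by edgeR, which called 0.0554% of all genes, 1 had an unadjusted p under 0.05 against 15.1%, and Igf2, H19, Peg3 and Cdkn1c were lower without overlap, 4 of 9 against 23.8%. Between DKO and Atg7KO tumours none was called, against 0.0485% of all genes, 4 had an unadjusted p under 0.05 against 16.6%, and Meg3 alone was lower without overlap, 1 of 9 against 20.3%. For the interaction, the tumour difference in DKO minus that in Atg7KO, none was called, against 0.0%, and 3 had an unadjusted p under 0.05 against 17.9%. No comparison thus gave a call by this test, and since they share groups, their values are not independent of each other. DESeq2 called Rian in the Atg7KO comparison and Meg3 and Rian between the tumours, as given with those genes, and limma with voom weights called none of the 9 in any comparison. Of all genes DESeq2 called 4.03%, 8.56%, 1.31%, 3.64% and 3.85% in the 5 comparisons in this order, and limma 2.35%, 0.0%, 3.9%, 0.256% and 0.0%. DESeq2 gave no p for Igf2, Dlk1 and Peg3 in any comparison.

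**Figure D2:**
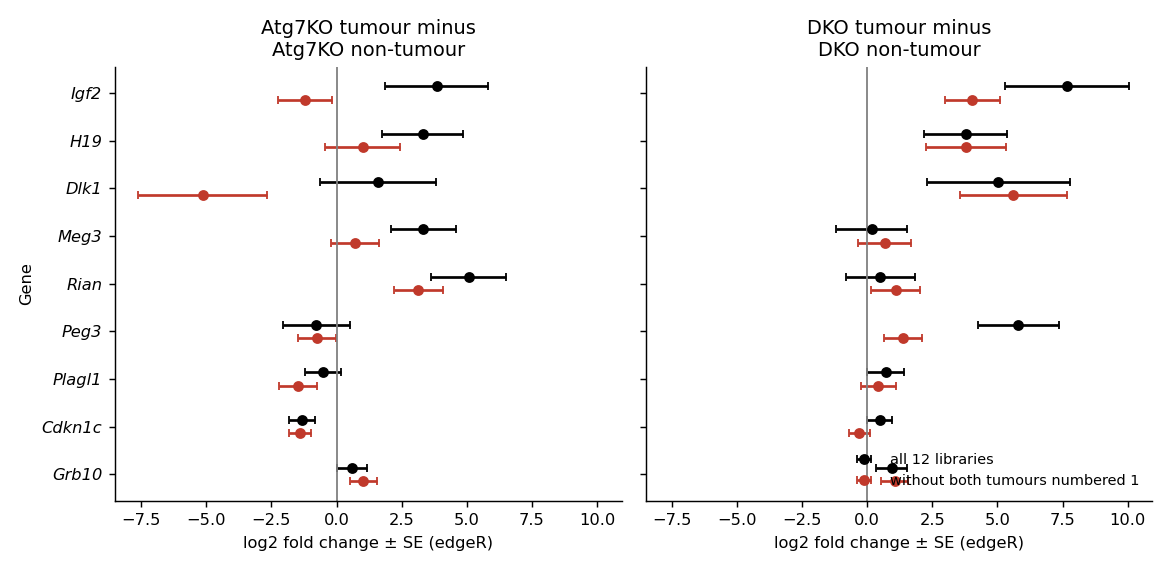
Points are log2 fold changes with bars of 1 SE from edgeR for each tested gene, tumour minus non-tumour in Atg7KO (left) and DKO (right), in black with all 12 libraries and in red without both tumours numbered 1. Without those tumours Igf2 moved from 3.85 to -1.22 in Atg7KO and Peg3 from 5.79 to 1.39 in DKO.

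Igf2 and H19 sit side by side on chromosome 7 and share enhancers, Igf2 encoding a fetal growth factor that signals through the IGF1 and insulin receptors and H19 a long noncoding RNA. Igf2 (NM_001122736, mm10 chromosome 7, 142650768 to 142661035, minus strand) stood at 3373, 10.5 and 58.1 CPM in Atg7KO tumours 1, 2 and 3, and at 116, 7.50 and 115 CPM in Atg7KO non-tumour libraries 1, 2 and 3. In the DKO it stood at 2850.3, 39.3 and 121 CPM in tumours and 3.01, 4.10 and 7.42 CPM in non-tumour liver. So tumours numbered 1 of both genotypes stood far above the rest, the other Atg7KO tumours lay inside the range of their non-tumour libraries, and all 3 DKO tumours lay above all 3 DKO non-tumour libraries.

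Group means of Igf2 were 1003 ± 1600 CPM for tumours and 4.84 ± 2.29 for non-tumour liver of DKO mice, and 1147 ± 1928 and 79.7 ± 62.5 for those of Atg7KO mice (SD, n = 3). The tumour difference in log2 was 3.85 (SE 1.98, adjusted p = 0.353) in Atg7KO and 7.69 (SE 2.38, adjusted p = 0.130) in DKO. Without Atg7KO tumour 1 the Atg7KO value turned to -1.22, whereas the DKO value without both tumours numbered 1 was 4.03 (SE 1.06, adjusted p = 0.277). The sign in Atg7KO therefore rested on a single tumour, and the sign in DKO did not. Between DKO and Atg7KO non-tumour liver it was -4.03 (SE 2.02, adjusted p = 0.371), and between the tumours -0.19 (SE 1.77, adjusted p = 0.969). The tumour difference did not pass the test of a difference between genotypes (interaction 3.84, SE 2.61, adjusted p = 0.465). In a DESeq2 fit without Atg7KO tumour 1, added after the data were seen, Igf2 did get a p. It was called in the DKO tumours (log2 fold change 7.73, SE 1.43, adjusted p = 8.59e-05) and in the interaction (8.93, SE 2.14, adjusted p = 0.0219). That fit left out the high Atg7KO tumour and kept the high DKO tumour, at 2850 CPM. Its interaction is therefore large by construction and is no test of whether the genotypes differ.

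H19 (NR_130973, mm10 chromosome 7, 142575530 to 142578146, minus strand), whose start lies 82889 bases from that of Igf2, stood at 10246, 80.4 and 1525 CPM in Atg7KO tumours and at 813, 113 and 274 CPM in Atg7KO non-tumour liver. Its levels in the DKO were 249, 29.9 and 489 CPM in tumours and 1.996, 10.9 and 43.0 CPM in non-tumour liver. Atg7KO tumour 1 alone gave 240263 reads of H19, 0.961% of its library, the rank of 15 among all genes per kb of length. That level was 6.72 times that of the next library, Atg7KO tumour 3, and 90.3 times the median of the other 11. No other library came near it, although H19 was present in all 12. The tumour difference was 3.30 (SE 1.56, adjusted p = 0.315) in Atg7KO and 3.77 (SE 1.60, adjusted p = 0.194) in DKO, and tumour and non-tumour libraries overlapped in both. Between the genotypes H19 was -4.42 (SE 1.65, adjusted p = 0.275) in non-tumour liver, where the groups did not overlap, and -3.95 (SE 1.61, adjusted p = 0.262) in tumours, where they did.

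The ratio of the 2 genes set DKO tumour 1 apart from all other libraries, but not Atg7KO tumour 1. Per kb of length H19 was above Igf2 in 11 of 12 libraries, from 1.23 times in DKO non-tumour 1 to 48.6 times in Atg7KO tumour 3. In Atg7KO tumour 1 the levels were 4478 CPM per kb of H19 and 796 of Igf2, with H19 5.62 times as high. In DKO tumour 1 the order was turned, with 673 CPM per kb of Igf2 and 109 of H19, an Igf2 level 6.19 times that of H19.

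**Figure D3:**
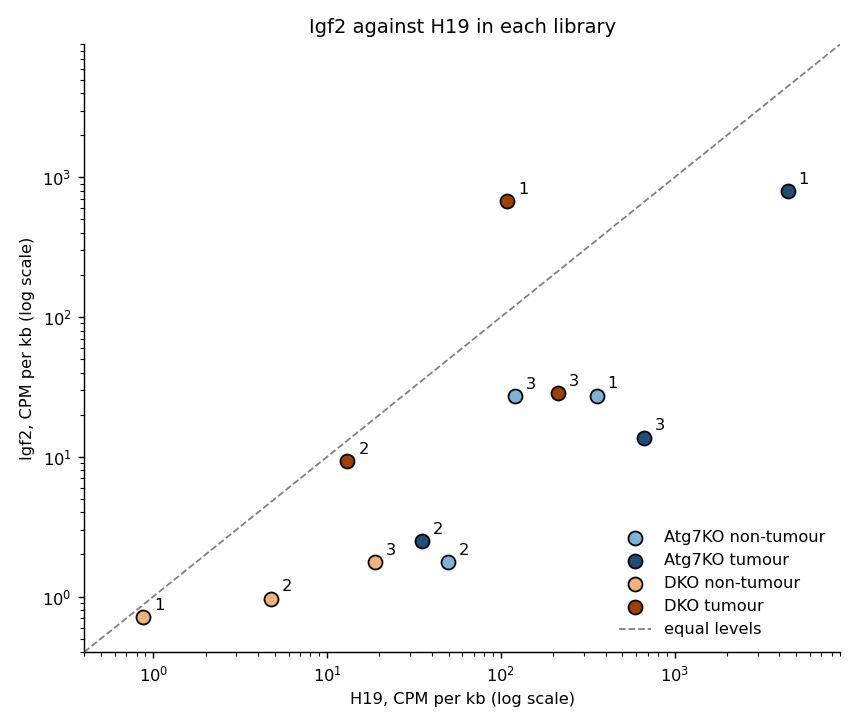
Each point is 1 library, with H19 on the x axis and Igf2 on the y axis, both in CPM per kb on log scales, the dashed line marking equal levels and the numbers the replicate. DKO tumour 1 is the single point above the line, and Atg7KO tumour 1 lies at the upper right below it.

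Igf2os, an antisense gene that overlaps the 5′ part of Igf2 on the plus strand (NR_002855, mm10 chromosome 7, 142659693 to 142670356), had 794 reads in DKO tumour 1, 78 in Atg7KO tumour 1 and 0 to 12 in the other 10 libraries. The strand setting of the counting is not given in the sources used here, so reads of the 2 overlapping genes cannot be told apart. Igf2 itself gave 97909 reads in DKO tumour 1 and 79090 in Atg7KO tumour 1. Of 11415 genes searched, those nearest to Igf2 across the 12 libraries were Igf2os, Baiap2l2, Mgst2, Bex1 and Tceal5, with root mean square differences of 1.503 to 2.06 in centred log2 CPM, where Igf2 itself varied by 3.22. H19, at 2.13, came close behind, and the next of the imprinted genes was Peg3 at 2.56. Mgst2, a microsomal glutathione transferase, stood at 145 CPM in Atg7KO tumour 1, 101 in DKO tumour 1 and 0.16 to 5.75 elsewhere. Bex1, a small X-linked protein gene, stood at 26.3 and 145 CPM in the same tumours and at 0.28 to 4.89 elsewhere.

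The chromosome 12 cluster holds Dlk1, a transmembrane protein with EGF-like repeats found on hepatoblasts and read from the paternal copy, and the maternal noncoding RNAs Meg3, Rian and Mirg. Dlk1 (NM_001190703, mm10 chromosome 12, 109452823 to 109463336, plus strand) stood at 45.5, 0 and 0.28 CPM in Atg7KO tumours and 14.7, 0.24 and 0.07 CPM in Atg7KO non-tumour liver. In the DKO it was 0.09, 0.52 and 34.9 CPM in tumours and 0.34, 0.27 and 0.43 CPM in non-tumour liver. Nearly all of its reads came from 3 libraries, Atg7KO tumour 1 (1068 reads), DKO tumour 3 (1116) and Atg7KO non-tumour 1 (512), and the other 9 had 0 to 15. The tumour difference of Dlk1 was 1.59 (SE 2.23, adjusted p = 0.755) in Atg7KO and 5.04 (SE 2.75, adjusted p = 0.295) in DKO. It turned to -5.14 in Atg7KO without Atg7KO tumour 1 and to -0.25 in DKO without DKO tumour 3.

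Meg3 (NR_027652, mm10 chromosome 12, 109540996 to 109571729, plus strand), a long noncoding RNA that starts 77660 bases after the end of Dlk1, stood at 22.4, 1.37 and 1.38 CPM in Atg7KO tumours and 0.72, 1.63 and 0.17 CPM in Atg7KO non-tumour liver. Its DKO levels were lower in most libraries, 0.06, 0.21 and 0.66 CPM in tumours and 0.04, 0.20 and 0.53 CPM in non-tumour liver. Each Atg7KO tumour lay above each DKO tumour, with a log2 fold change of -4.75 for DKO minus Atg7KO (SE 1.35, edgeR adjusted p = 0.164). DESeq2 called this difference (-4.78, SE 1.11, adjusted p = 0.00197), and no longer did so without Atg7KO tumour 1 (-2.17, adjusted p = 0.347). Over all settings tried its adjusted p ran from 0.00197 to 0.609. Between tumours and non-tumour liver Meg3 was 3.33 (SE 1.25, adjusted p = 0.225) in Atg7KO and 0.17 (SE 1.36, adjusted p = 0.950) in DKO, the latter turning to -1.03 without DKO tumour 3 and -0.33 without DKO non-tumour 1.

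Rian (NR_028261, mm10 chromosome 12, 109603945 to 109661711, plus strand), the host of a series of small nucleolar RNAs, stood at 102, 18.2 and 3.16 CPM in Atg7KO tumours and 2.04, 1.07 and 0.51 CPM in Atg7KO non-tumour liver. These groups did not overlap, so here the tumours numbered 2 and 3 also lay above all non-tumour libraries, though the highest was 5.60 times the next. The log2 fold change was 5.07 (SE 1.43, edgeR adjusted p = 0.163). DESeq2 called it (5.10, SE 1.39, adjusted p = 0.0127), and without Atg7KO tumour 1 it did not (3.17, adjusted p = 0.267), with a range of 0.0127 to 0.395 over all settings. In the DKO Rian was 0.03, 0.59 and 4.03 CPM in tumours and 0.51, 0.82 and 1.85 CPM in non-tumour liver, a difference of 0.51 (SE 1.32, adjusted p = 0.847) that turned to -1.85 without DKO tumour 3. DKO tumour 1, highest for Peg3, thus had the lowest Rian of all libraries, 1 read. Between the tumours Rian was -4.72 (SE 1.40, adjusted p = 0.173) with edgeR and -4.74 (SE 1.38, adjusted p = 0.0264) with DESeq2, the latter becoming -2.81 (adjusted p = 0.349) without Atg7KO tumour 1.

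Mirg (NR_028265, mm10 chromosome 12, 109734981 to 109749457, plus strand), the most distal noncoding RNA of the cluster and host of miRNAs, had 39 reads in Atg7KO tumour 1 and 0 to 4 in the other 11 libraries, and did not pass the filter for edgeR. DESeq2, which had no such filter, gave it a log2 fold change of 3.51 (SE 1.90, adjusted p = 0.311) in Atg7KO tumours and -4.74 (SE 2.04, adjusted p = 0.180) between the tumours, and edgeR without the filter called none of the 10 genes. Per kb of length Rian was above Meg3 in all 12 libraries, by 1.81 to 47.9 times, the lowest ratio resting on the 1 read of Rian in DKO tumour 1. Dlk1 and the maternal RNAs did not always go together: in Atg7KO tumour 2 Dlk1 had 0 reads and Rian 516, and in DKO tumour 3 Dlk1 had 1116 reads and Meg3 stood at 0.66 CPM. Rtl1, a retrotransposon-derived gene of the paternal copy that lies between Meg3 and Rian on the minus strand, had 89 reads in Atg7KO tumour 3 and 0 to 2 elsewhere. That tumour had 8 reads of Dlk1. The genes nearest to Meg3 across the libraries were Glod5, Ldb3, Spsb4, Sult5a1 and Fam81a, at 0.87 to 1.11 in centred log2 CPM where Meg3 itself varied by 1.99, and Rian stood at 1.11. Each of the 5 was highest in Atg7KO tumour 1, at 8.10 to 20.4 CPM.

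**Figure D4:**
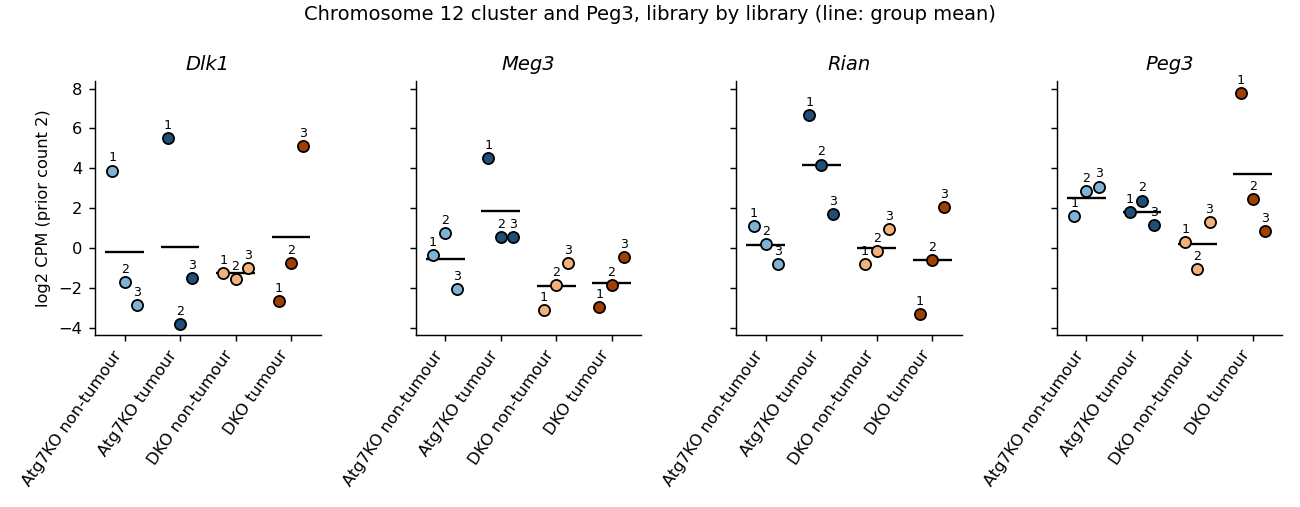
Points are log2 CPM (prior count 2) of Dlk1, Meg3, Rian and Peg3 in each library, labelled by replicate, with the group mean as a line. Atg7KO tumour 1 is the top point for Dlk1, Meg3 and Rian, DKO tumour 3 stands out for Dlk1 only, and DKO tumour 1 for Peg3.

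Peg3, a large zinc finger protein read from the paternal copy, was high in a single tumour that none of the chromosome 12 genes marked. Peg3 (NM_008817, mm10 chromosome 7, 6705960 to 6730419, minus strand) stood at 223, 5.41 and 1.72 CPM in DKO tumours and 1.15, 0.41 and 2.38 CPM in DKO non-tumour liver. In the Atg7KO its levels were 3.45, 5.14 and 2.17 CPM in tumours and 2.99, 7.18 and 8.42 CPM in non-tumour liver. The 7658 reads in DKO tumour 1 made a level 26.5 times that of the next library and 74.5 times the median of the other 11, whereas the other DKO tumours lay above and inside the range of DKO non-tumour liver. Its tumour difference was 5.79 (SE 1.55, adjusted p = 0.118) in DKO and -0.79 (SE 1.29, adjusted p = 0.795) in Atg7KO, with an interaction of 6.58 (SE 1.97, adjusted p = 0.177). Without DKO tumour 1 the DKO value was 1.40 (adjusted p = 0.385), and the difference between the tumours, 4.42 (SE 1.43, adjusted p = 0.200), went to -0.0079. With all libraries limma gave 1.95 (SE 1.31, adjusted p = 0.376) in DKO and 0.62 (SE 1.05, adjusted p = 0.800) between the tumours.

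Neighbours of Peg3 gave reads in the same tumour. Usp29, whose start lies 164 bases from that of Peg3 on the other strand, had 125 reads in DKO tumour 1 and 0 or 1 elsewhere, and Zim1 had 14 reads there and 0 or 1 elsewhere. Both were named after their values were seen. Peg3os overlaps Peg3 on the opposite strand and had 7 reads in DKO tumour 1, so an antisense part of the Peg3 reads cannot be told apart. Over all 10 genes 109 rows of the table lay within 200 kb, 22 of them passed the filter, and 3 and 2 of these 22 did not overlap between tumours and non-tumour liver in Atg7KO and DKO, against 23.5% and 26.9% of all genes.

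Grb10, Cdkn1c and Plagl1 varied far less from library to library. Grb10 (NM_010345, mm10 chromosome 11, 11930499 to 12037420, minus strand), an adaptor that dampens insulin and IGF receptor signalling, stood at 10.5, 17.5 and 10.3 CPM in DKO tumours and 5.77, 5.74 and 8.38 CPM in DKO non-tumour liver. All 3 tumours lay above, with a log2 fold change of 0.94 (SE 0.59, adjusted p = 0.364). In the Atg7KO it stood at 4.73, 32.0 and 10.1 CPM in tumours and 16.0, 5.52 and 9.46 CPM in non-tumour liver, which overlapped (0.59, adjusted p = 0.641), and the value was -0.48 without Atg7KO tumour 2.

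Cdkn1c (NM_001161624, mm10 chromosome 7, 143458339 to 143461050, minus strand) encodes p57, an inhibitor of cyclin-dependent kinases read from the maternal copy. It stood at 2.22, 2.5 and 1.27 CPM in Atg7KO tumours, below all 3 Atg7KO non-tumour libraries at 6.01, 4.56 and 4.48 CPM (means 1.997 ± 0.643 and 5.02 ± 0.863, SD, n = 3). The log2 fold change of -1.33 had the smallest SE of the 9 genes in this comparison, 0.49, and did not pass the test (adjusted p = 0.218). The DKO levels were 6.55, 1.39 and 2.72 CPM in tumours and 2.38, 2.66 and 2.62 CPM in non-tumour liver, a difference of 0.48 (SE 0.48, adjusted p = 0.584) that turned to -0.31 without DKO tumour 1. Its interaction was 1.81 (SE 0.69, adjusted p = 0.213), and in non-tumour liver DKO lay below Atg7KO without overlap (-0.98, SE 0.49, adjusted p = 0.366).

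Plagl1 (NM_009538, mm10 chromosome 10, 13090788 to 13131695, plus strand), a zinc finger protein of the paternal copy that in mouse embryos acts on other imprinted genes, was low throughout. Atg7KO tumours had 1.58, 0.35 and 0.45 CPM against 2.16, 0.63 and 0.54 in their non-tumour liver, and DKO tumours 1.51, 0.62 and 1.19 against 0.72, 0.41 and 0.86. The groups overlapped in all 4 comparisons, with adjusted p from 0.574 to 0.751. Its value turned to 0.41 in the Atg7KO tumours and to 0.20 between non-tumour livers without Atg7KO non-tumour 1.

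Values of other tissues were set beside the high libraries. Skeletal muscle markers summed to 0.60 to 2.92 CPM and pancreatic acinar markers to 0.12 to 1.41 CPM in all libraries, with Pnlip at 0. Adrenal cortex markers summed to 12.8 CPM in Atg7KO tumour 1, 7.19 in DKO tumour 1, 95.5 in DKO tumour 2, 34.2 in DKO tumour 3 and 2.32 to 10.8 in the others, most of it Cyp21a1 in 9 libraries and Star in the other 3 (Atg7KO tumours 2 and 3 and Atg7KO non-tumour 2), with Cyp11b1 and Mc2r at 0. Mesothelial markers were lowest in Atg7KO tumour 1 at 1.49 CPM and highest in DKO tumour 3 at 31.1 CPM, and stellate cell markers stood at 404 CPM in Atg7KO tumour 1 and 421 in DKO tumour 1 within a range of 325 to 1110 over all libraries. Cycling cell markers stood at 127 and 97.6 CPM in these tumours within a range of 43.0 to 160 CPM. The part of other cell types in the levels of the imprinted genes was not tested further.

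Of 48 other imprinted genes 31 were tested, none was called by edgeR, and the set was split evenly: 17 above and 14 below 0 in Atg7KO tumours with a median of 0.03, and 15 above and 16 below 0 in DKO tumours with a median of -0.02. In Atg7KO 3 were higher and 6 lower without overlap, the largest being Nap1l5 (-2.06), Ndn (-1.69) and Ddc (1.32), and in DKO 4 were higher and 2 lower, the largest being Igf2r (1.29), Commd1 (-1.08) and Peg10 (0.98). These 9 and 6 of 31 stand against 23.5% and 26.9% of all genes. Nap1l5 and Ndn were near the floor, with means of 0.09 and 0.11 CPM in Atg7KO tumours and 0.38 and 0.36 CPM in Atg7KO non-tumour liver. DESeq2 called Peg10, Cd81 and Ddc higher in Atg7KO, 3 of 31 against 4.03% of all genes, and Igf2r higher and Commd1 lower in DKO, 2 of the 27 it gave an adjusted p against 8.56%. Cd81 and the Atg7KO value of Peg10 were named after these calls were seen. Igf2r, which carries Igf2 to the lysosome for breakdown, stood at 193, 90.4 and 71.2 CPM in DKO tumours and 41.1, 38.9 and 64.8 CPM in DKO non-tumour liver (SE 0.45, edgeR adjusted p = 0.141, DESeq2 adjusted p = 0.0496). Peg10, a retrotransposon-derived gene of the paternal copy, stood at 136, 3.94 and 14.3 CPM in Atg7KO tumours and 1.70, 2.14 and 4.04 CPM in Atg7KO non-tumour liver, and 0.43 to 1.19 CPM in DKO libraries. Its highest library was thus again Atg7KO tumour 1. The Atg7KO groups overlapped, with a log2 fold change of 4.29 (SE 1.02, edgeR adjusted p = 0.120, DESeq2 adjusted p = 0.00179), and without that tumour the DESeq2 value was 1.80 (adjusted p = 0.0651). The call of Cd81 (DESeq2 0.63, adjusted p = 0.0256) was also lost without it (0.59, adjusted p = 0.137). Grb10's neighbour Ddc, aromatic amino acid decarboxylase, stood at 100, 329 and 106 CPM in Atg7KO tumours, highest in the tumour with the highest Grb10, and 88.4, 64.4 and 62.3 CPM in non-tumour liver (SE 0.41, edgeR adjusted p = 0.178, DESeq2 adjusted p = 0.0432).

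Genes that act on imprints, by writing, copying, binding or removing their methylation or as chromatin factors, lay mostly below 0 in Atg7KO tumours and mostly above 0 in DKO tumours. Of 19 such genes 18 were tested and none was called by edgeR: 4 were above and 14 below 0 in Atg7KO tumours (median -0.19), and 15 above and 3 below 0 in DKO tumours (median 0.36), 7 of them higher without overlap against 26.9% of all genes. In Atg7KO 1 was higher and 2 lower without overlap, against 23.5%. For DKO minus Atg7KO in non-tumour liver, 1 of the 18 was above and 17 were below 0. The median was -0.28 against -0.05 over all genes. None was called by edgeR, against 0.0554%, and 5 were lower without overlap, against 23.8%. DESeq2 called 1 lower, of 18 with an adjusted p, against 1.31% of all genes. The tumour differences and the interaction are measured from these non-tumour livers. The 18 included Tet1, Tet2 and Tet3, which oxidise methylated cytosine and so act towards its removal. They stood at -1.63, -0.64 and -0.83 in Atg7KO and 1.06, 0.39 and 1.22 in DKO. Tet1 was near the floor, with means of 0.35 and 0.11 CPM in Atg7KO non-tumour liver and tumours and 0.17 and 0.39 in those of DKO. In Atg7KO the groups overlapped for Tet1 and Tet2, which were named for their function. DESeq2 called none of the 18 in Atg7KO, and Zfp57, Dnmt1, Smchd1 and Tet3 higher in DKO, 4 of the 16 it gave an adjusted p against 8.56% of all genes. For the interaction 15 were above and 3 below 0 (median 0.67 against 0.04 over all genes), and none was called by edgeR. DESeq2 called Tet3 there, 1 of the 14 it gave an adjusted p, against 3.85% of all genes. Zfp57 is the zinc finger protein that recruits the repressor protein TRIM28 to methylated imprints. It stood at 5.94, 2.53 and 1.69 CPM in DKO tumours and 0.21, 0.48 and 0.79 CPM in DKO non-tumour liver (log2 fold change 2.75, SE 0.59, edgeR adjusted p = 0.117, DESeq2 adjusted p = 0.00186). The DKO non-tumour levels were near the floor, with a mean of 0.495 CPM. Zfp57 was highest in DKO tumour 1, the library with the highest Peg3. Tet3 stood at 24.8, 17.4 and 12.3 CPM in DKO tumours and 8.53, 6.42 and 8.48 CPM in DKO non-tumour liver, but at 8.57, 9.26 and 11.2 CPM in Atg7KO tumours and 13.4, 22.02 and 16.2 CPM in Atg7KO non-tumour liver. All 3 tumours lay above in DKO and below in Atg7KO, with an interaction of 2.05 (SE 0.39, edgeR adjusted p = 0.175, DESeq2 adjusted p = 0.0046). Smchd1 (0.77, edgeR adjusted p = 0.118) followed in DKO, and the other 2 of the Atg7KO comparison were Uhrf1 (0.78, adjusted p = 0.205) and Arid4a (-0.38, adjusted p = 0.363).

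In the IGF2 pathway 17 of 18 genes were tested and none was called by edgeR, with 7 above and 10 below 0 in Atg7KO tumours (median -0.25) and 11 above and 6 below 0 in DKO tumours (median 0.71). Without overlap 3 were higher and 2 lower in Atg7KO, against 23.5% of all genes, and 4 higher and 2 lower in DKO, against 26.9%. DESeq2 called 4 in each, of 15 with an adjusted p, against 4.03% of all genes in Atg7KO and 8.56% in DKO. These were Igf2bp3 and Igfbp6 higher and Igf1 and Igf1r lower in Atg7KO, and Igf2bp3, Igf2r and Irs1 higher and Igf1 lower in DKO. Igfbp6 and Irs1 were named after these calls were seen, and the Atg7KO call of Igf1 was lost without Atg7KO tumour 1 (-1.26, DESeq2 adjusted p = 0.166). Igfbp6 differed widely between the Atg7KO tumours, with a mean of 66.0 ± 107 CPM against 1.15 ± 0.68 in Atg7KO non-tumour liver (SD, n = 3). Its DESeq2 value was 6.37 without tumour 1, and DESeq2 was not run without tumour 2 or 3. Igf2bp3, a fetal RNA-binding protein that binds Igf2 transcripts, stood at 20.1, 6.52 and 12.3 CPM in Atg7KO tumours and 3.91, 0.24 and 0.91 CPM in Atg7KO non-tumour liver. In the DKO it stood at 7.95, 8.01 and 8.82 CPM in tumours and 0.68, 0.41 and 0.43 CPM in non-tumour liver. Every tumour lay above every non-tumour library of its genotype, which for Igf2 held in DKO alone, with log2 fold changes of 2.92 (SE 0.74, edgeR adjusted p = 0.128, DESeq2 adjusted p = 0.00179) and 4.00 (SE 0.81, edgeR adjusted p = 0.117, DESeq2 adjusted p = 3.78e-05). Igf1r, the receptor through which Igf2 acts, stood at 2.17, 4.19 and 3.47 CPM in Atg7KO tumours and 14.8, 6.19 and 15.2 CPM in Atg7KO non-tumour liver (-1.88, SE 0.44, edgeR adjusted p = 0.116, DESeq2 adjusted p = 0.00254). Pappa, a protease that frees IGFs from a binding protein (3.34, adjusted p = 0.203), came next in Atg7KO, and stood at 32.7 CPM in tumour 2 and 1.07 to 2.39 in the other Atg7KO libraries. In DKO the others were Igf1 (-1.50, adjusted p = 0.135) and the binding protein gene Igfbp3 (1.39, adjusted p = 0.366).

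Of 8 genes silenced in liver after birth or controlling that silencing 6 were tested and none was called by edgeR. The counts were 3 above and 3 below 0 in Atg7KO tumours (median 0.07, none without overlap) and 5 above and 1 below 0 in DKO tumours (median 0.93, 2 higher without overlap against 26.9% of all genes). DESeq2 called none in Atg7KO, and Afp and Lpl in DKO, 2 of 5 with an adjusted p, against 4.03% and 8.56% of all genes. Afp, alpha-fetoprotein, the main serum protein of fetal liver, stood at 2324, 197 and 289 CPM in DKO tumours and 8.28, 27.1 and 21.5 CPM in DKO non-tumour liver (5.63, SE 1.25, edgeR adjusted p = 0.117, DESeq2 adjusted p = 0.000505). It was thus highest in DKO tumour 1, but in Atg7KO tumour 1, with the most Igf2 and H19 of all, Afp stood at 54.6 CPM. Lpl, a lipase that fetal liver makes and adult hepatocytes lose, was the other (1.69, edgeR adjusted p = 0.142, DESeq2 adjusted p = 0.0377).

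All 6 other inhibitors of cyclin-dependent kinases were tested, to set beside Cdkn1c, and none was called by edgeR. In both genotypes 3 were above and 3 below 0, with medians of 0.62 and 0.33, and Cdkn2b, Cdkn2a and Cdkn1a were higher without overlap, the values being 1.74, 1.70 and 1.27 in Atg7KO and 1.33, 1.58 and 0.72 in DKO. Cdkn2d (-0.68) was lower without overlap in DKO, so these were 3 of 6 in Atg7KO and 4 of 6 in DKO against 23.5% and 26.9% of all genes. DESeq2 called Cdkn1a and Cdkn2b in Atg7KO, 2 of 6 against 4.03% of all genes, and none in DKO, against 8.56%. Cdkn1a, the p53 target p21, stood at 158, 119 and 88.4 CPM in Atg7KO tumours and 47.5, 28.3 and 76.4 CPM in Atg7KO non-tumour liver (SE 0.32, edgeR adjusted p = 0.128, DESeq2 adjusted p = 0.0127). Without Atg7KO tumour 1 neither call held (Cdkn1a 1.05, DESeq2 adjusted p = 0.125, and Cdkn2b 1.66, DESeq2 adjusted p = 0.103). Cdkn1c, by contrast, lay below its non-tumour liver in these tumours.

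**Figure D5:**
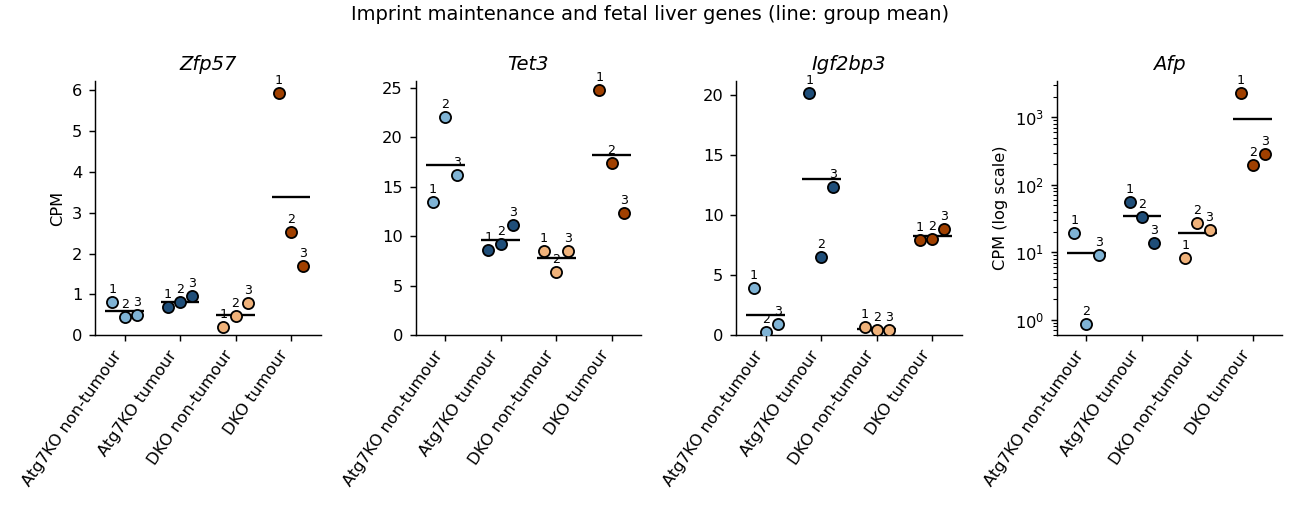
Points are CPM of Zfp57, Tet3, Igf2bp3 and Afp in each library, labelled by replicate, with the group mean as a line and a log scale for Afp only. Igf2bp3 is higher in every tumour than in every non-tumour library of its genotype, and Zfp57, Tet3 and Afp are highest in DKO tumour 1.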

How the data were processed

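The authors deposited 1 table of raw counts (reads assigned to each RefSeq gene, not normalized) with the length and mm10 position of 24421 genes in 12 total RNA libraries. The tools named in the submitters' processing notes are bcl2fastq, STAR (2.5.3a), Subread (1.5.3) with featureCounts, and edgeR (3.20.8), with mm10 as the build. The strand setting and annotation release are not given in the sources used here, so genes overlapping on opposite strands may share reads. Groups were taken from the labels.

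The filterByExpr function kept 14443 genes for testing at a minimum count of 10 and a minimum total of 15, and 4509 genes were at 0 in all libraries. TMM-scaled counts of all 12 libraries were fitted with edgeR 4.0.16 (limma 3.58.1, R 4.3.3) with a term per group. Robust quasi-likelihood F tests and legacy deviances were used, after a check on simulated data. The simulated counts had the same spread for every gene and no single high library, so the check did not cover that pattern. Tests were two-sided with Benjamini-Hochberg adjustment within a comparison and calls at an adjusted p under 0.05. The SE is the log2 fold change over the square root of F. The common biological coefficient of variation was 0.3647. With 3 libraries on each side, 0.1 is the smallest two-sided p that exact permutation allows, and single values were therefore not tested that way. DESeq2 1.42.0, limma with voom weights and other settings were alternatives. Plots were made in python 3.11.15 (matplotlib 3.10.9).

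The 10 genes and the gene lists were chosen with earlier results of these data known. Besides the 10 genes, the rule named rows within 200 kb that overlap or lie between them, the 5 genes nearest to Igf2 and to Meg3 in centred log2 CPM (prior count 2) among genes reaching 5 CPM, and of each list the 3 largest log2 fold changes among genes whose groups do not overlap. Zim1, Usp29, Tet1 and Tet2 fall outside it. Totals of reads limit precision by counting error only, not by the spread between libraries.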

Additional observations from a re-analysis of the deposited data

How the results depend on the processing

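Other settings were RLE factors, library totals, no filter, DESeq2, limma with voom weights, an offset for gene length, only the 2 groups compared, a replicate block and leaving out each library. With both tumours numbered 1 left out, and with DESeq2 without Atg7KO tumour 1, 2 more were added after the data were seen. In none but the following was any of the imprinted genes called. DESeq2 called 1 of them in Atg7KO tumours against non-tumour liver and 2 between the tumours, and without Atg7KO tumour 1 it called 1 in DKO tumours and 1 in the interaction. That interaction call was of Igf2, whose high Atg7KO tumour was left out while its high DKO tumour was kept. Scaling to library totals moved the median of all genes by 0.25 in the DKO tumour comparison, -0.19 between non-tumour livers and 0.26 in the interaction, and turned no sign. The cause of the turned signs was not tested beyond the libraries named.

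In Atg7KO tumours Igf2 turned to -1.22 and Dlk1 to -5.14 without both tumours numbered 1, and to -1.21 and -5.17 with DESeq2 without Atg7KO tumour 1. In DKO tumours Meg3 turned to -0.33 under the gene length offset, Rian to -0.26 under the replicate block, and Cdkn1c to -0.21 with limma and -0.31 without both tumours numbered 1. Between non-tumour livers Rian turned to 0.037 with limma. Between the tumours Dlk1 turned to 2.72 and Grb10 to 0.29 with limma, and without both tumours numbered 1 Igf2 turned to 1.22, Dlk1 to 6.95 and Peg3 to -0.037. With DESeq2 without Atg7KO tumour 1 the tumours differed by 4.91 in Igf2 and 6.42 in Dlk1, and the Grb10 interaction was -0.11, against -0.050 under the gene length offset. The mean of Cdkn1c in DKO non-tumour liver was 2.30 CPM under library totals, against 2.55.

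Leaving out 1 library at a time called none of the imprinted genes, and where signs turned the log2 fold changes ran as follows. In Atg7KO tumours Igf2 ran from -1.22 to 4.43, Dlk1 from -5.14 to 6.63, Plagl1 from -1.47 to 0.41 and Grb10 from -0.48 to 1.07. In DKO tumours the ranges were -0.25 to 5.61 for Dlk1, -1.03 to 1.43 for Meg3, -1.85 to 1.25 for Rian and -0.31 to 0.86 for Cdkn1c. Between non-tumour livers they were -4.38 to 1.24 for Dlk1, -0.90 to 0.47 for Rian and -1.05 to 0.20 for Plagl1. Between tumours Igf2 ran from -3.83 to 4.87, Dlk1 from -5.64 to 6.37, Peg3 from -0.0079 to 5.02 and Grb10 from -0.72 to 0.80. In the interaction H19 ran from -0.56 to 2.77, Dlk1 from -1.84 to 10.2 and Grb10 from -0.12 to 1.43. Where a group kept 2 libraries, the spread was pooled over all groups.

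Tumour and non-tumour libraries of the same number correlated in their deviations from the group means at 0.016, 0.056 and 0.311 in Atg7KO and 0.074, 0.333 and 0.024 in DKO, and 4 of 6 non-tumour libraries correlated best with the tumour of their own number. The labels do not say what the number marks, so a pairing was not established, and the replicate block called 0 of the imprinted genes. No block could be fitted between genotypes, nor the 2 groups alone for the interaction. Counting error limits the genes with few reads: Mirg, Plagl1, Meg3, Dlk1 outside its 3 high libraries, and among the listed genes Tet1, Nap1l5, Ndn and Zfp57 outside the DKO tumours.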
